A study of Rattus norvegicus with 8 samples.

Results

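The collagen receptors Ddr1 and Ddr2 and 8 integrin subunits were measured in rat liver after 28 days of thioacetamide. The 10 genes (Ddr1, Ddr2, Itga1, Itga2, Itga5, Itga6, Itgav, Itgb1, Itgb5 and Itgb6) were found by gene symbol or gene identifier in the annotation of the arrays. They accounted for 10 of 24051 genes and 12 of 26208 probe sets, because Itga6 and Itgav each had 2 probe sets. They are cell surface receptors for collagen and related matrix, chosen in part by the difference between the same thioacetamide and control arrays, since earlier results had placed Ddr1 among the probe sets with large rises. Their differences between the groups are therefore descriptions and carry no test of their own.

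Ddr1 and Ddr2 are receptor tyrosine kinases that bind triple-helical collagen. Ddr1 is found mainly in epithelial cells and Ddr2 mainly in mesenchymal cells. Integrins are heterodimers of an alpha and a beta subunit that couple matrix outside the cell to actin and to focal adhesion kinases inside it, and the alpha subunit largely decides which ligand is bound. In fibrotic liver, stellate cells and myofibroblasts deposit collagen, and the integrins that contain alpha v are known to release active TGF-beta from its latent complex.

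The tested rats were male F344/N animals that received thioacetamide, a liver toxicant that is bioactivated by liver enzymes, for 28 days. The controls were untreated male F344/N rats kept on basal diet and tap water, with gavage stated as the route of both groups. Each group held 4 animals with 1 array each, and neither the dose nor the age is stated in the sources used here. Expression was measured as log2 values on 1-colour NimbleGen arrays, with 2 or 3 probes in each of the 12 probe sets.

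The promoters of Ddr1, Itgav and Itgb1, the genes past the threshold below for which the promoter table held an entry, are shown first, for the DNA that stands before these transcripts. The arrays report transcript levels and say nothing of how they are set. The promoter table held 9 promoters of 8 of the 10 genes (RefSeq, GRCr8, 250 bases before to 50 after each start), and none was used for Ddr2 or Itga6. Ddr1 had 2 starts on the plus strand of chromosome 20, at chr20:3048737-3049036 (upstream) and chr20:3050156-3050455 (downstream). Itgav was taken from chr3:89245132-89245431 and Itgb1 from chr19:73602027-73602326, both on the plus strand. Capitals mark GGGCGG, the core letters bound by Sp and KLF factors, and GGAATG, the core letters bound by TEAD factors, read on either strand so that CCGCCC also marks the first motif.
Ddr1 upstream start: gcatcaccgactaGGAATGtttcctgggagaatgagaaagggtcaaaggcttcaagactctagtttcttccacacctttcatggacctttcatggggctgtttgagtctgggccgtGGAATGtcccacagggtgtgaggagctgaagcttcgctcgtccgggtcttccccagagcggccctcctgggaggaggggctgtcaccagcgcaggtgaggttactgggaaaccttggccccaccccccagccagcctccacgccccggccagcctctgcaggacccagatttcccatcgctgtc
Ddr1 downstream start: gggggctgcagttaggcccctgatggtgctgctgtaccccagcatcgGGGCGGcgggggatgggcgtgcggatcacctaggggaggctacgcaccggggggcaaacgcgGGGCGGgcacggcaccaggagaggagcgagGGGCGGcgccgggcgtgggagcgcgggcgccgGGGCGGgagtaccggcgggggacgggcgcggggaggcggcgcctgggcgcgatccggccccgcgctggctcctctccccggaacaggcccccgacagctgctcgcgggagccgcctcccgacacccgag
Itgav: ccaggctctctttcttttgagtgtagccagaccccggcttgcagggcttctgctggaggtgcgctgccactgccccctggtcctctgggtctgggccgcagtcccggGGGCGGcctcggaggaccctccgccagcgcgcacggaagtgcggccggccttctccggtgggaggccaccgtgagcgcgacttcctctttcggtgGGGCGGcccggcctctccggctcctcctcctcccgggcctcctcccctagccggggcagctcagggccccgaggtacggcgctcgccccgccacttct
Itgb1: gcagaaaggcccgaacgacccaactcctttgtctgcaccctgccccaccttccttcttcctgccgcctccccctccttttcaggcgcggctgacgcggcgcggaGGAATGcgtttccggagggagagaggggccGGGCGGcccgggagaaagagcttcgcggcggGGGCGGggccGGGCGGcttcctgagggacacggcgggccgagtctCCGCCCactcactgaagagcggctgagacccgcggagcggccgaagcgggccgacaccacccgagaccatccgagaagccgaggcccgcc

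The upstream Ddr1 promoter held GGAATG 2 times and GGGCGG 0 times, with 60.0% G and C. The downstream one held GGGCGG 4 times and GGAATG 0 times, with 78.7% G and C. The Itgav promoter held GGGCGG 2 times at 72.7% G and C, and the Itgb1 promoter held it 4 times, beside 1 GGAATG, at 71.7% G and C. Of the others, Itga2 held GGGCGG 3 times and Itga5 2 times, while Itga1, Itgb5 and Itgb6 held neither motif. Of all 33469 promoters of the table, 33.1% held GGGCGG and 14.2% held GGAATG, and the median G and C content was 51.7%. TATAAA (14.2% of all promoters), TGANTCA, the letters of an AP-1 site (7.33%), and CCAAT (37.5%) stood in 0 of the 9 promoters. The motifs were chosen after the sequences had been read, and a match is a description of letters in this window.

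**Figure D1:**
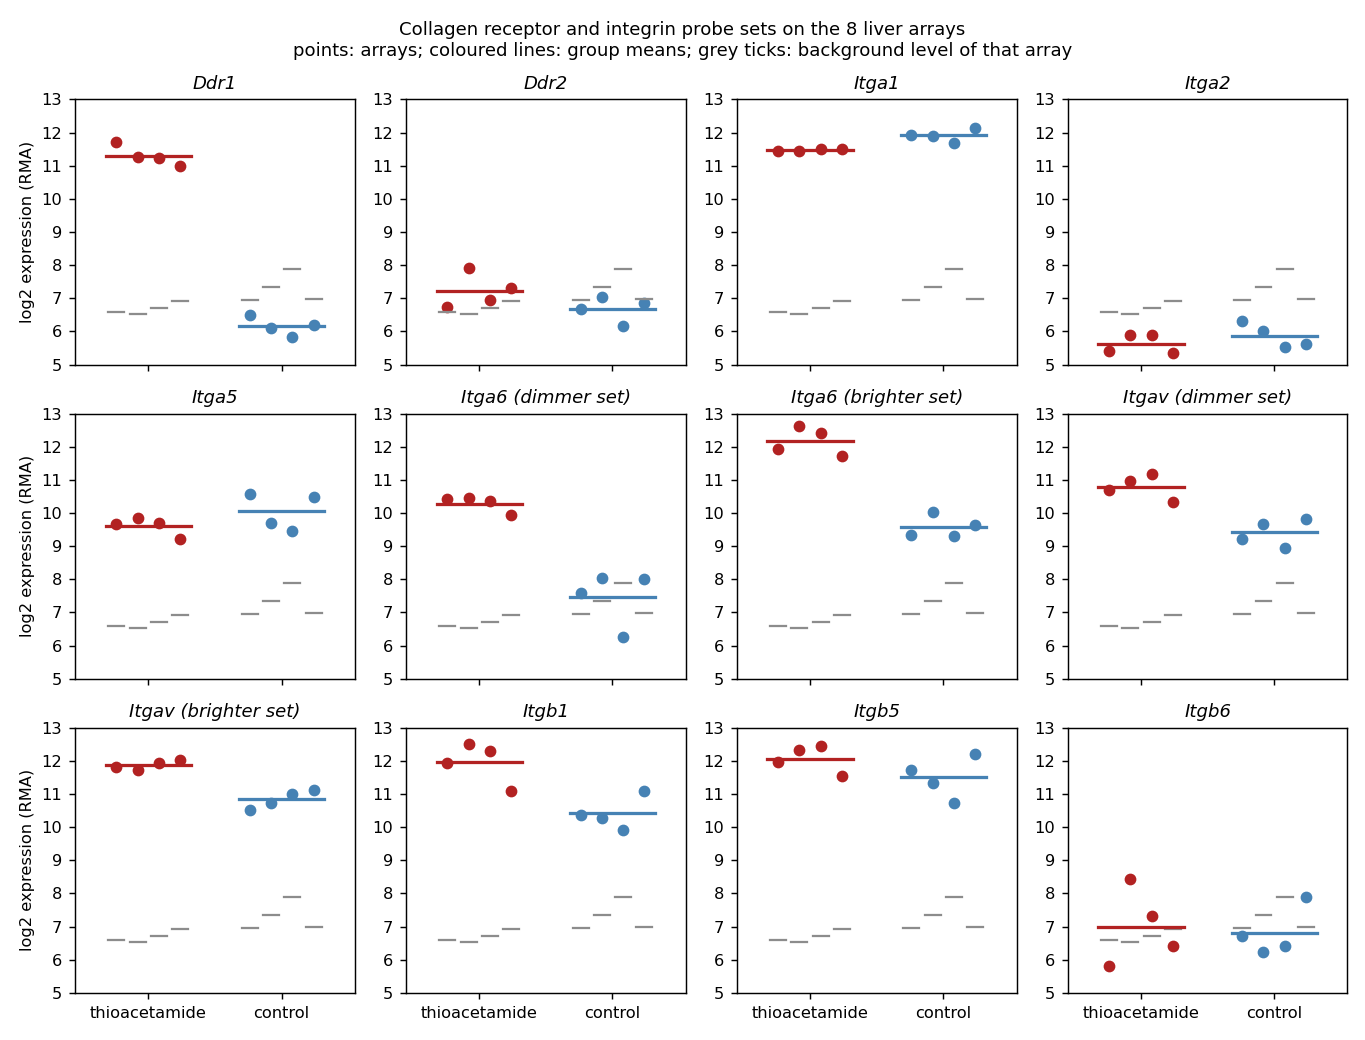
Log2 expression (RMA) of the 12 probe sets on the 8 arrays, with thioacetamide arrays in red left of control arrays in blue. Points are arrays, coloured lines are group means and grey ticks are the background level of each array. The treated arrays of Ddr1 lie between 10.98 and 11.73 and its control arrays between 5.84 and 6.51, under their grey ticks.

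Ddr1, both probe sets of Itga6, both of Itgav and the probe set of Itgb1 were higher in thioacetamide livers, with every treated array above every control array. Itga1 was lower on every treated array, and the groups overlapped for Ddr2, Itga2, Itga5, Itgb5 and Itgb6. In the limma fit over all probe sets, 4 of the 10 genes passed an adjusted p of 0.05, all 4 of them higher, where 14.6% of all probe sets passed it, 9.46% as higher and 5.14% as lower. Groups did not overlap for 5 of the 10 genes (4 higher and 1 lower), against 21.5% of all probe sets (13.9% higher and 7.55% lower). The median log2 difference of the 10 genes was 0.56, beside -0.03 for all probe sets. Since these genes were chosen with this comparison known, nothing is read from those counts. Differences ran from 1.05 upward in the 4 genes past the threshold and did not exceed 0.57 in size in the other 6.

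A level called background was taken for each array from its olfactory receptor probe sets, as the 95th percentile of 1312 of them. It lay between 6.53 and 6.93 on the thioacetamide arrays and between 6.96 and 7.88 on the control arrays, and 55.6% to 61.1% of probe sets exceeded it in thioacetamide livers against 43.7% to 54.1% in control livers. Of the 10 genes, 6 were above it on all 8 arrays. The groups separated along the first principal component (51.7% of the variance), and the second (19.8%) set control replicates 2 and 3 and thioacetamide replicate 4 apart from the others of their groups. Where a call named below changes without these 3 arrays, this is stated beside it.

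Ddr1 had log2 levels of 11.73, 11.25, 11.23 and 10.98 in the 4 thioacetamide livers, against 6.51, 6.11, 5.84 and 6.21 in the 4 control livers. All 4 treated arrays lay far over all control arrays, and the control arrays were at or under their background level. The means were 11.30 ± 0.32 in treated and 6.17 ± 0.27 in control livers (SD, n = 4 each), a log2 difference of 5.13 ± 0.23 (SE of the fit, 95% interval 4.62 to 5.64). Because the control livers gave no signal above background, the fold is a bound, and Ddr1 was at least 16-fold higher in thioacetamide livers. By its difference it ranked 7 among all 26208 probe sets. The difference stayed between 4.87 and 5.24 in every alternative run, including those that left out an array. In bulk liver RNA, a change in the number of cells that express a gene and a change in the RNA per cell cannot be told apart, here or for the genes that follow.

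Ddr2, the receptor of mesenchymal cells, had log2 levels of 6.75, 7.93, 6.95 and 7.31 in thioacetamide livers, against 6.69, 7.04, 6.17 and 6.85 in control livers. The ranges overlapped, with 1 treated array at 7.93 above the rest. All 4 treated arrays and 0 control arrays exceeded their background level, which itself was lower on treated arrays. The mean was 7.24 ± 0.52 in treated and 6.69 ± 0.37 in control livers (SD, n = 4 each), a difference of 0.55 ± 0.29 with a 95% interval of -0.11 to 1.20. The difference was 0.32 without thioacetamide replicate 2, and Ddr2 did not pass the threshold in any of the alternatives run.

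Itga1, which with beta-1 forms the collagen-binding integrin of sinusoidal cells and hepatocytes, had log2 levels of 11.46, 11.45, 11.52 and 11.50 in thioacetamide livers, against 11.94, 11.89, 11.69 and 12.14 in control livers. Every treated array was lower than every control array, and the treated arrays were tight, with an SD of 0.03 against 0.18 in controls (n = 4 each). The difference was -0.43 ± 0.18 (95% interval -0.83 to -0.04), which did not pass the threshold as deposited and passed it after cyclic loess normalization, at -0.56. Itga2, the other collagen-binding alpha subunit among the 10 genes, gave 5.41, 5.89, 5.90 and 5.34 in thioacetamide livers and 6.31, 6.0, 5.54 and 5.61 in control livers. All 8 of these arrays were at or under background, so Itga2 was not above background in either group. The 2 remaining collagen-binding alpha subunits, Itga10 and Itga11, were also at or under background on all 8 arrays. Among the 7 collagen-binding receptor genes (Ddr1, Ddr2, Itga1, Itga2, Itga10, Itga11 and the shared subunit Itgb1), a grouping made after the values were seen, 2 passed the threshold, Ddr1 and Itgb1, both higher.

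Itga6, the laminin-binding alpha subunit that pairs with beta-1 or with beta-4 and is known from bile duct epithelium, was the integrin gene with the largest difference among the 26 integrin genes measured. Its brighter probe set gave log2 levels of 11.94, 12.63, 12.42 and 11.72 in thioacetamide livers, against 9.34, 10.04, 9.31 and 9.63 in control livers. All treated arrays were above all control arrays. The means were 12.18 ± 0.42 in treated and 9.58 ± 0.34 in control livers (SD, n = 4 each), a difference of 2.60 ± 0.26 or 6.07-fold. The dimmer probe set, which the files assign to transcript variant 1, gave 10.42, 10.44, 10.36 and 9.93 in thioacetamide livers, against 7.59, 8.04, 6.25 and 8.0 in control livers. Its difference was 2.82 ± 0.37 or 7.04-fold, with 3 of the 4 control arrays above background. Both probe sets passed the threshold in every alternative run, with differences between 2.43 and 2.85 for the brighter and between 2.41 and 3.01 for the dimmer one.

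The partner subunit Itgb4, which pairs with alpha-6 in hemidesmosomes, was higher as well. It gave log2 levels of 9.72, 9.36, 9.16 and 9.55 in thioacetamide livers, against 8.08, 7.53, 7.84 and 8.27 in control livers, without overlap. The difference was 1.51 ± 0.22 or 2.86-fold (limma, adjusted p = 0.0018), with 3 of 4 control arrays above background, and it passed in every alternative run. Itga3, a laminin-binding alpha subunit that pairs with beta-1, gave 8.60, 8.35, 8.39 and 7.71 in thioacetamide livers and 7.43, 6.98, 7.48 and 7.17 in control livers. Its difference of 1.0 ± 0.24 passed (limma, adjusted p = 0.0195), with 2 of 4 control arrays above background. The adjusted p ran from 0.0049 to 0.066 over the alternatives, above 0.05 with cyclic loess (a difference of 0.78) and without control replicate 2 (0.90) or thioacetamide replicate 1 (0.88), 2 (0.97) or 3 (0.95). Itga7, the laminin receptor subunit of muscle, went the other way in these data, with 7.54, 7.47, 7.90 and 7.24 in thioacetamide livers and 8.10, 8.39, 8.0 and 9.10 in control livers. Its difference of -0.86 ± 0.27 did not pass (limma, adjusted p = 0.0615), and passed without control replicate 3 (-0.99), after cyclic loess (-1.09), with array weights (-0.85) and with the filter on dim probe sets, where the adjusted p was 0.0214 to 0.153 over all alternatives.

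Laminins are the basement membrane ligands of these subunits. Of 10 laminin chains, 5 were higher and 0 lower at an adjusted p of 0.05 in limma (Lama3, Lama5, Lamb1, Lamb3 and Lamc1). Among all probe sets, 9.46% were higher and 5.14% lower. The median difference of the 10 chains was 0.62. Lamb2 was lower on every treated array than on every control array, at -0.40 ± 0.17, and did not pass (limma, adjusted p = 0.159). Lama5 gave 9.51, 9.51, 9.19 and 9.61 in thioacetamide livers, against 7.48, 8.02, 7.93 and 8.15 in control livers, a difference of 1.56 ± 0.21 or 2.95-fold (limma, adjusted p = 0.00106). Lamc1 gave 11.48, 11.91, 11.66 and 11.61 in thioacetamide livers and 10.76, 10.67, 10.68 and 10.91 in control livers, 0.91 ± 0.18 (limma, adjusted p = 0.00804). Lama3 was at or under background on every control array, and was at least 1.36-fold higher, with means of 7.74 in treated and 6.73 in control livers (limma, adjusted p = 0.00334). These 3 chains passed in every alternative run. Lamb1 (0.72 ± 0.19) and Lamb3 (0.67 ± 0.19) did not, and the count of laminin chains fell to 3 after cyclic loess, with trend and robust estimation, and without any 1 array other than control replicate 3. Lamb3 also did not pass without the 3 arrays that stood apart. Of the 5 laminin-binding subunits, 4 were higher (Itga3, Itga6, Itgb1 and Itgb4) and Itga7 did not pass, and 2 were higher without thioacetamide replicate 2. Both groupings were made after the values were seen.

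Itgav, the alpha subunit of the vitronectin and fibronectin receptors that act on latent TGF-beta, gave log2 levels of 11.83, 11.74, 11.94 and 12.03 on its brighter probe set in thioacetamide livers, against 10.52, 10.73, 10.99 and 11.12 in control livers. The groups did not overlap, and the treated arrays spanned a narrow range. The means were 11.89 ± 0.13 in treated and 10.84 ± 0.27 in control livers (SD, n = 4 each), a difference of 1.05 ± 0.20 or 2.07-fold. The second probe set gave 10.71, 10.98, 11.18 and 10.33 in thioacetamide livers and 9.22, 9.67, 8.95 and 9.81 in control livers, a difference of 1.38 ± 0.26 or 2.61-fold. Both passed the threshold in every alternative run.

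Itgb1, the beta subunit shared by the collagen, laminin and fibronectin receptors and a partner of alpha v, gave 11.95, 12.51, 12.29 and 11.09 in thioacetamide livers, against 10.37, 10.29, 9.93 and 11.09 in control livers. Replicate 4 of thioacetamide and replicate 4 of control both came to 11.09, so the groups were separate by less than 2 decimals show. The means were 11.96 ± 0.62 in treated and 10.42 ± 0.49 in control livers (SD, n = 4 each), a difference of 1.54 ± 0.35 or 2.91-fold. Without thioacetamide replicate 2 the difference was 1.36 and no longer passed the threshold, and over the fits that left out 1 array it ranged from 1.36 to 1.83.

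The other partners of alpha v did not pass. Itgb5, named in the files as similar to integrin beta-5, gave 11.97, 12.34, 12.44 and 11.53 in thioacetamide livers, against 11.74, 11.32, 10.74 and 12.21 in control livers. Control arrays at 11.74 and 12.21 lay within the treated range, and the difference was 0.57 ± 0.33 (95% interval -0.17 to 1.30), at 0.31 without control replicate 3 and 0.27 without the 3 arrays that stood apart. Itgb6, the epithelial subunit that with alpha v activates latent TGF-beta, gave 5.80, 8.45, 7.32 and 6.41 in thioacetamide livers and 6.73, 6.24, 6.41 and 7.89 in control livers. It exceeded background on 2 treated arrays and 1 control array, with a difference of 0.18 ± 0.55 (95% interval -1.06 to 1.41). That sign rested on single arrays, since the difference was -0.31 without thioacetamide replicate 2, -0.02 without control replicate 2 and -0.12 without the 3 arrays named above. Itgb3 gave 0.20 ± 0.23 (limma, adjusted p = 0.594), and Itgb8 exceeded background on 1 treated and 0 control arrays. Of the 5 beta partners of alpha v, Itgb1 was the 1 that passed.

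Itga5, the fibronectin receptor subunit, leaned lower. It gave 9.68, 9.86, 9.70 and 9.23 in thioacetamide livers, against 10.59, 9.69, 9.46 and 10.49 in control livers, where 2 control arrays were high and 2 lay within the treated range. The difference was -0.44 ± 0.29 (95% interval -1.09 to 0.20) and did not pass, at -0.27 without control replicate 1. Without the 3 arrays that stood apart it was -0.80 and passed, a set left out after the data had been seen, which brings the count of the 10 genes to 5.

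**Figure D2:**
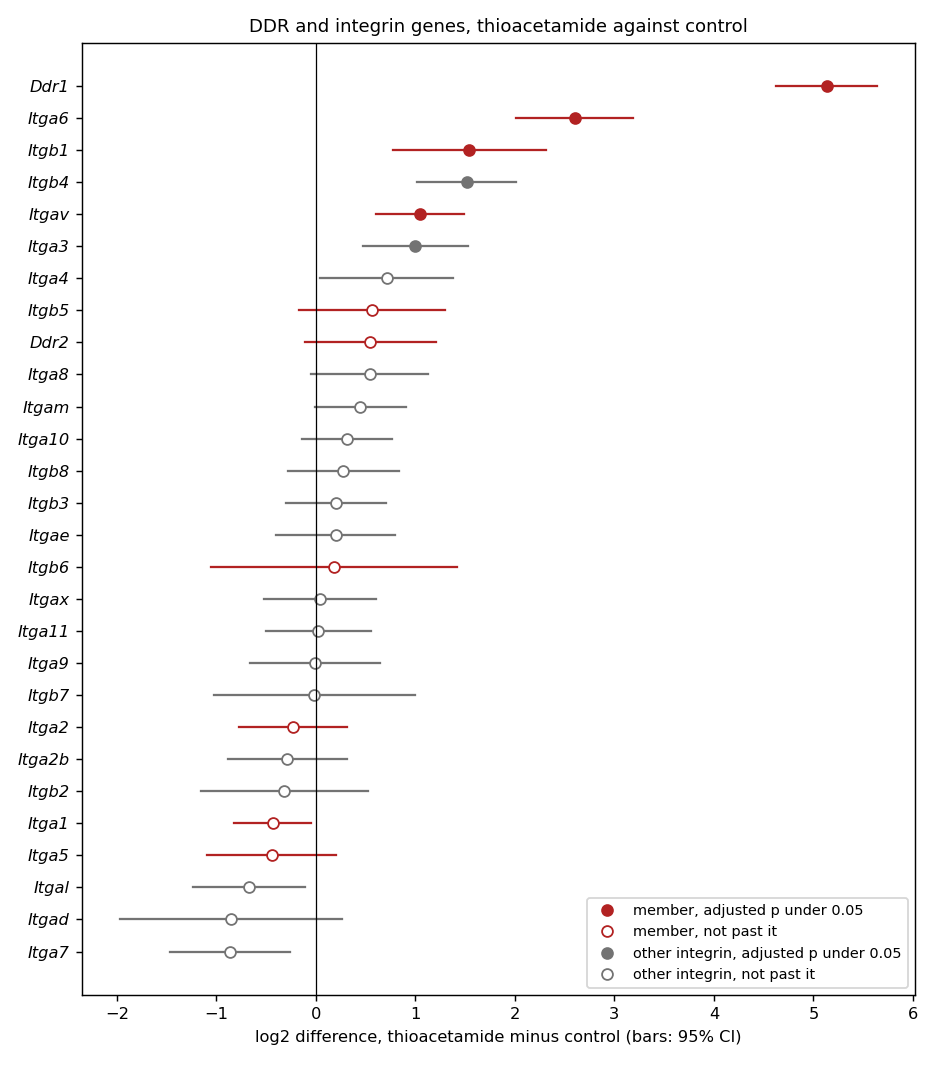
Log2 difference, thioacetamide minus control, of Ddr1, Ddr2 and 26 integrin genes, in order of size. Bars are 95% intervals of the fit, red marks the 10 genes described here, grey the other integrins, and filled points passed an adjusted p of 0.05. Ddr1 stands alone at 5.13, followed by Itga6 at 2.60, and the lowest point is Itga7 at -0.86.

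Over all 26 integrin genes, 5 were higher (Itga6, Itgb1, Itgb4, Itgav and Itga3) and 0 lower at an adjusted p of 0.05. Among all probe sets, 9.46% were higher and 5.14% lower. The median difference of the 26 genes was 0.19. The count of higher genes was 3 without thioacetamide replicate 2, and 1 or 2 genes were lower under some settings, 2 of them after cyclic loess. Of the 10 integrins outside the set described here, Itgb4 and Itga3 were the 2 that passed, with a median difference of 0.24. Of 8 integrins of leukocytes, 0 passed in limma, and at an unadjusted p under 0.05 1 was higher and 1 lower, with a median of 0.01. Itga4, which pairs with beta-1 on lymphocytes, gave 8.30, 8.68, 8.69 and 7.99 in thioacetamide livers and 7.79, 7.37, 7.19 and 8.46 in control livers, 0.71 ± 0.30 (limma, adjusted p = 0.145). Without control replicate 4 it passed at 0.96, with an adjusted p of 0.0369 to 0.326 over its alternatives. Itgad, a leukocyte alpha subunit, gave 6.81, 6.60, 6.14 and 6.28 in thioacetamide livers and 6.77, 7.12, 9.02 and 6.31 in control livers, 1 control array standing over the other arrays. Its difference of -0.85 ± 0.50 (limma, adjusted p = 0.291) was -0.28 without control replicate 3.

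Of 11 other receptors for collagen, hyaluronan and other matrix, 3 were higher (Cd44, Hmmr and Cd36) and 0 lower, and the median difference was -0.17. The shares of all probe sets were 9.46% higher and 5.14% lower. Cd44, the main hyaluronan receptor, gave 9.93, 9.56, 9.32 and 9.69 in thioacetamide livers, against 6.62, 6.82, 7.48 and 6.82 in control livers, where all 4 control arrays were at or under background. It was at least 5.04-fold higher (limma, adjusted p = 0.000117). Hmmr, a hyaluronan-binding protein of the mitotic spindle, was at least 1.56-fold higher, with means of 7.94 in treated and 6.08 in control livers (limma, adjusted p = 0.00285). Cd36, a scavenger receptor that also binds collagen and thrombospondin, differed by 1.39 ± 0.38 (limma, adjusted p = 0.0346), and its second probe set by 1.89 (adjusted p = 0.0295). The Cd36 groups overlapped, and its adjusted p ran from 0.00445 to 0.109 over the alternatives, above 0.05 without any 1 array other than control replicate 4 or thioacetamide replicate 4 and without the 3 arrays that stood apart. Gp6, Lair1 and Mrc2, collagen receptors of platelets, leukocytes and mesenchymal cells, were at or under background on all 8 arrays.

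Of 26 integrin ligands other than collagens that were matched, 7 were higher and 0 lower, beside 9.46% and 5.14% of all probe sets. The median of the list was 0.09. Beside the laminins the higher ligands were Mfge8 and Thbs1. Mfge8, a secreted ligand of alpha v integrins, gave 12.57, 12.43, 12.22 and 12.09 in thioacetamide livers, against 10.57, 10.19, 10.31 and 10.60 in control livers. It differed by 1.91 ± 0.20 or 3.76-fold (limma, adjusted p = 0.00027), and by 2.02 on its second probe set. Thbs1, thrombospondin-1, gave 9.14, 9.85, 8.76 and 8.57 in thioacetamide livers and 7.32, 7.62, 7.27 and 6.66 in control livers. Its difference was 1.86 ± 0.31 (limma, adjusted p = 0.00356), with 2 of 4 control arrays above background. Fn1, the fibronectin ligand of alpha-5 beta-1, differed by 0.15 ± 0.21 (limma, adjusted p = 0.691). Vtn, vitronectin, was lower on every treated array than on every control array, at -0.55 ± 0.18, and did not pass (limma, adjusted p = 0.0773). With array weights, 2 ligands of the list were lower.

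Of 13 collagen chains that these receptors bind, 0 passed in limma, with 3 higher and 0 lower at an unadjusted p under 0.05 and a median difference of 0.39. Col1a1, a chain of the fibrillar collagen of scars, gave 12.58, 13.14, 12.08 and 12.74 in thioacetamide livers, against 11.70, 11.33, 13.09 and 12.40 in control livers. Control replicate 3 was within the treated range, and the difference was 0.51 ± 0.38 (limma, adjusted p = 0.412). Col5a2 differed by 0.68 ± 0.28 (limma, adjusted p = 0.143) and Col2a1, a cartilage chain, by -0.70 ± 0.44 (limma, adjusted p = 0.33). Without control replicate 3, where Col2a1 was highest and Col5a2 lowest among controls, the difference was -0.35 for Col2a1 and 0.45 for Col5a2, and without the 3 arrays that stood apart it was -0.16 for Col2a1. Array weights called 1 collagen chain, and the other settings run called 0.

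Inside the cell, 5 of 36 focal adhesion adaptors and kinases were higher and 1 was lower, beside 9.46% and 5.14% of all probe sets. The median of the list was 0.25. Vasp, an actin regulator at focal adhesions, gave 10.38, 9.89, 9.74 and 9.54 in thioacetamide livers, against 8.83, 8.0, 6.97 and 8.98 in control livers. It differed by 1.69 ± 0.42 (limma, adjusted p = 0.0228), with 3 of 4 control arrays above background. Its adjusted p was 0.0083 to 0.0747 over the alternatives, above 0.05 without control replicate 2 or thioacetamide replicate 1, 2 or 3. Nck2, an adaptor for phosphorylated receptors, was at or under background in all controls and at least 2.20-fold higher (limma, adjusted p = 0.00571). Lims2, the PINCH-2 adaptor of the integrin-linked kinase complex, gave 8.91, 8.48, 8.73 and 7.80 in thioacetamide livers and 10.34, 9.79, 9.35 and 10.04 in control livers. It fell by 1.40 ± 0.29 on the log2 scale (limma, adjusted p = 0.0113) and passed in every alternative run. The other 3 that rose were Crk, Git1 and Itgb1bp1, with differences between 0.76 and 0.79, and none of the 3 passed in every alternative. Git1 lost its call in 10 of 15 alternatives, Crk in 7 and Itgb1bp1 in 4, among them leaving out the 3 arrays that stood apart for Itgb1bp1 (adjusted p = 0.0638). The focal adhesion kinase gene Ptk2 (0.06 ± 0.23, limma, adjusted p = 0.904) and the integrin-linked kinase gene Ilk (0.01 ± 0.19, limma, adjusted p = 0.98) did not pass. The count of higher adaptors was 1 without thioacetamide replicate 2, 2 without control replicate 1 or 2 or thioacetamide replicate 1 or 3, 3 after cyclic loess and 8 without the 3 arrays that stood apart.

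Of 18 signalling partners of the discoidin domain receptors, 4 were higher and 1 lower, beside 9.46% and 5.14% of all probe sets. The median of the list was 0.36. Cdh1, the E-cadherin that binds Ddr1 at cell contacts, gave 13.18, 13.59, 13.59 and 12.88 in thioacetamide livers, against 11.48, 11.44, 11.80 and 12.41 in control livers, 1.53 ± 0.27 or 2.89-fold (limma, adjusted p = 0.00474). Pard6a, a polarity protein, was at least 1.34-fold higher (limma, adjusted p = 0.00346), while its second probe set differed by 0.01. The other 2 that rose were Nck2, also counted above, and the adaptor Frs2, at 0.90 ± 0.21 (limma, adjusted p = 0.0196). The adjusted p of Frs2 ran from 0.0104 to 0.0853, above 0.05 in 6 of 15 alternatives, among them the fits without control replicate 1 (0.79), thioacetamide replicate 2 (0.87) or 3 (0.84), or the 3 arrays that stood apart (0.87), and after cyclic loess (0.64). Wwc1, the KIBRA scaffold that binds Ddr1, fell by 0.75 ± 0.21 on the log2 scale (limma, adjusted p = 0.0425), and its second probe set gave -0.54 (limma, adjusted p = 0.22). The adjusted p of Wwc1 ran from 0.0219 to 0.132 and was above 0.05 without any 1 array other than control replicate 2.

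Of 13 tetraspanins and membrane proteins that bind integrins, 5 were higher and 1 lower, beside 9.46% and 5.14% of all probe sets. The median of the list was 0.54. Plaur, the urokinase receptor, was at or under background on every control array and at least 2.15-fold higher, with means of 8.40 in treated and 6.32 in control livers (limma, adjusted p = 0.000311). Cd63, a tetraspanin of late endosomes, gave 14.04, 14.16, 14.19 and 14.30 in thioacetamide livers, against 11.82, 12.92, 13.40 and 12.55 in control livers, 1.50 ± 0.31 (limma, adjusted p = 0.00977). Slc3a2, the CD98 heavy chain that binds beta-1 tails, differed by 1.03 ± 0.19 (limma, adjusted p = 0.00602), and the other 2 that rose were Cd151, the partner of alpha-3 and alpha-6 integrins, at 0.82 ± 0.20 (limma, adjusted p = 0.0198) and Lgals1 at 0.97 ± 0.29 (limma, adjusted p = 0.047). The adjusted p of Cd151 ran from 0.00282 to 0.0825, above 0.05 in 6 of 15 alternatives, among them the fits without control replicate 2, thioacetamide replicate 1, 2 or 3, or the 3 arrays that stood apart. That of Lgals1 ran from 0.0302 to 0.17 and was above 0.05 in 12 of 15 alternatives. They include cyclic loess, median centring, trend and robust estimation, the fit without the 3 arrays that stood apart (adjusted p = 0.17) and leaving out any 1 array other than thioacetamide replicate 3. The count of higher genes was 3 without control replicate 2 or thioacetamide replicate 1 or 2. Cd82, a tetraspanin known to restrain motility, fell by 0.74 ± 0.21 on the log2 scale (limma, adjusted p = 0.0405). Its adjusted p ran from 0.00683 to 0.107, above 0.05 without any 1 array other than control replicate 1 or 2 and without the 3 arrays that stood apart.

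**Figure D3:**
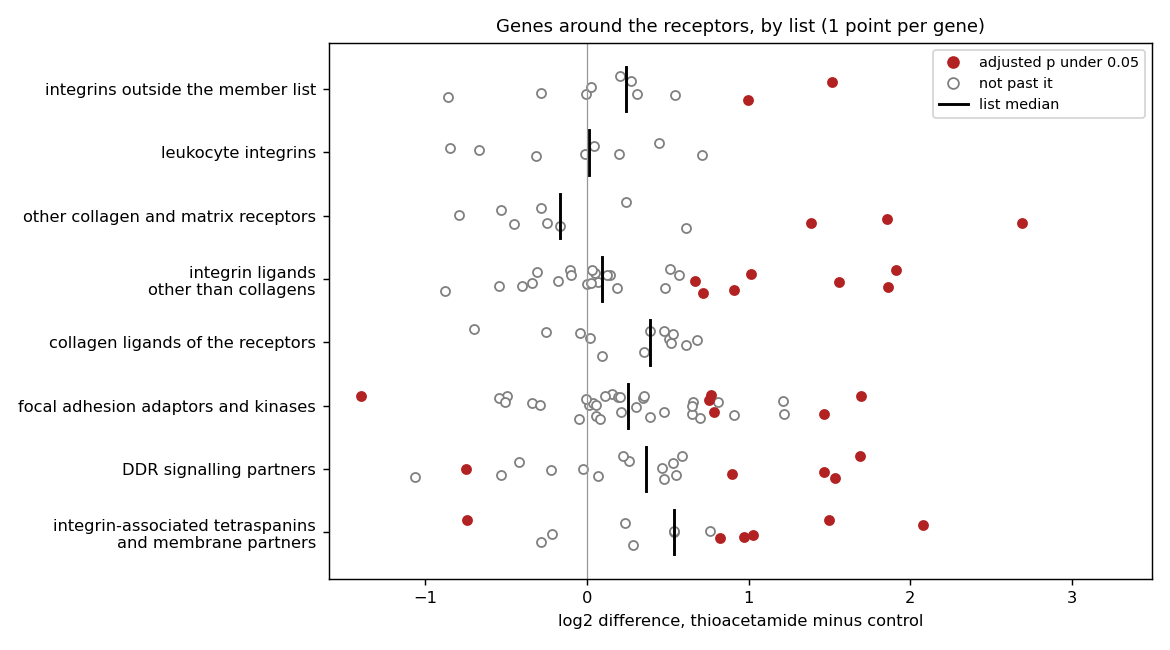
Log2 difference, thioacetamide minus control, of the genes of 8 lists around the receptors, 1 point per gene. Filled points passed an adjusted p of 0.05 and the black bar is the list median, which ranges from -0.17 (other collagen and matrix receptors) to 0.54 (tetraspanins and membrane partners). Of the 133 genes, 28 passed.

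Over the 8 lists, 28 of 133 genes passed, beside 14.6% of all probe sets. These lists were chosen with earlier results of the data known, and their counts are descriptions. The count was 15 without thioacetamide replicate 2, 17 without thioacetamide replicate 1 or 3, and 28 without the 3 arrays that stood apart. Dim probe sets hold down the share of all probe sets. With only those above background on at least 4 arrays kept, 38 of the listed genes passed. Of the 14699 probe sets kept, 30.7% passed, 2950 as higher and 1561 as lower. The number of listed genes kept was not counted, so no excess is read from the 38. The shares given beside each list, 9.46% higher and 5.14% lower, include dim probe sets.

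Within the groups, a few arrays were often the lowest or the highest. Thioacetamide replicate 4 was the lowest of its group in 8 of the 12 and thioacetamide replicate 2 the highest in 6. Control replicate 3 was the lowest of its group in 10 of the 12 and control replicate 4 the highest in 6. Control replicate 3 also had the highest background level, 7.88, and the lowest mean correlation with its group across probe sets, 0.935. The differences of the 10 genes nevertheless kept their sign in every alternative run apart from Itgb6.

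**Figure D4:**
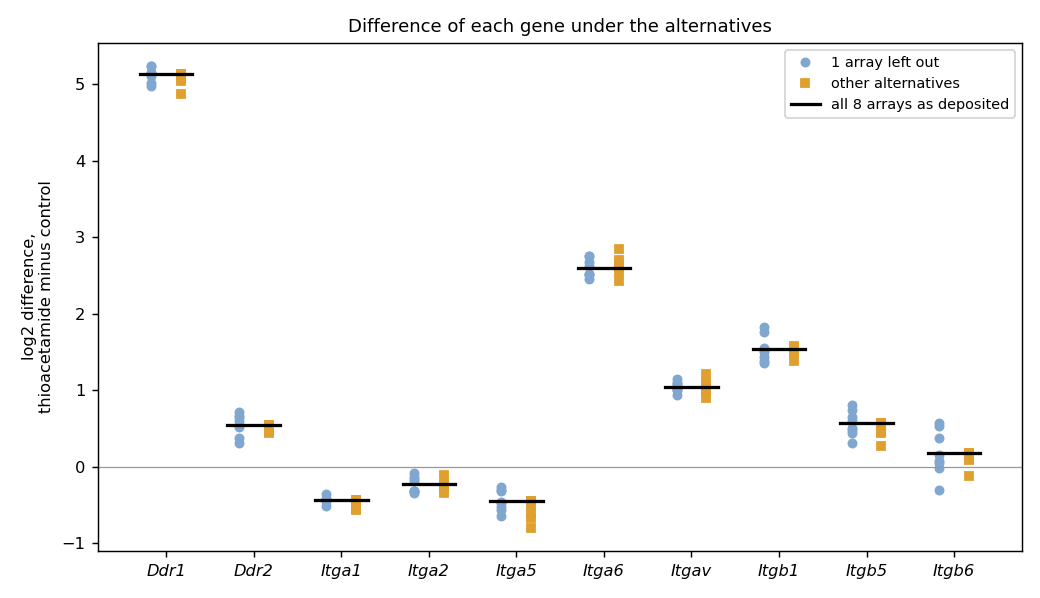
Log2 difference, thioacetamide minus control, of each of the 10 genes under the alternatives. Blue circles leave out 1 array, orange squares are the other alternatives and black lines the value from all 8 arrays as deposited. Ddr1 stays between 4.87 and 5.24, and Itgb6 is on both sides of 0.

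Marker genes of liver cell types were read on the same arrays. At an adjusted p of 0.05, 9.46% of all probe sets were higher and 5.14% lower. Of 8 bile duct markers, 3 were higher and 0 lower (Epcam, Cldn7 and Cd24), and their mean log2 level was 9.10 to 9.66 on thioacetamide arrays against 7.38 to 8.62 on control arrays. Epcam gave 11.27, 11.83, 11.45 and 11.01 in thioacetamide livers, against 9.46, 8.96, 9.80 and 9.87 in control livers (limma, adjusted p = 0.00141). Krt19, the defining bile duct keratin, gave 9.14, 10.08, 8.97 and 9.72 in thioacetamide livers and 8.25, 8.68, 10.94 and 9.71 in control livers (limma, adjusted p = 0.937), and Krt7 exceeded background on 2 treated and 0 control arrays. The summed linear level of the 8 was 8112 to 11270 in thioacetamide livers and 1888 to 5809 in control livers. Ddr1, Itga6 and Itgb4 were also higher in thioacetamide livers. Among controls, Krt19, Krt7, Sox9, Cldn4, Cldn7 and Cd24 were highest on replicate 3, and Epcam and Cftr were not. Ddr1 (5.84) and the brighter Itga6 probe set (9.31) were lowest on that array. Ddr1 was under background on every control array. Control replicate 3 was the lowest control in 10 of the 12 receptor probe sets, so nothing about bile duct cells is read from this order. The count of higher bile duct markers was 4 without control replicate 3, and also without the 3 arrays that stood apart. The part of bile duct cells in the receptor results was not tested.

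Of 10 stellate cell and myofibroblast markers, 4 were higher (Des, Lrat, Cygb and Dcn) and 0 lower. The mean log2 level of the list was 9.25 to 9.88 in thioacetamide livers and 9.16 to 9.32 in control livers. Des exceeded background on 2 treated and 0 control arrays. Acta2 (-0.71 ± 0.43), Tagln (-0.59 ± 0.35), Pdgfrb (-0.46 ± 0.33) and Lum (-0.36 ± 0.29) leaned lower without passing. Reln (0.65 ± 0.21) and Vim (0.21 ± 0.29) leaned higher without passing. The count of higher markers was 1 without control replicate 1 or thioacetamide replicate 2. It was 2 without thioacetamide replicate 1 or 3 and after cyclic loess. Without the 3 arrays that stood apart, 3 markers were higher and 1 was lower. Of 8 macrophage markers, 3 were lower (Marco, Clec4f and Csf1r), at a mean of 10.96 to 11.41 in thioacetamide livers and 11.47 to 12.39 in control livers. The macrophage count was 0 without thioacetamide replicate 2 and 1 without thioacetamide replicate 1, 3 or 4 or the 3 arrays that stood apart, and 5 after median centring, with the filter on dim probe sets and with trend and robust estimation. Endothelial markers had 1 of 7 lower (Vwf) and 0 higher, T and NK cell markers 2 of 7 lower (Gzma and Nkg7), and platelet markers 0 of 4 in either direction. The T and NK cell count was 1 without any 1 array other than control replicate 4 or thioacetamide replicate 1. It was also 1 without the 3 arrays that stood apart. The endothelial count was 0 without thioacetamide replicate 1 or 3 or the 3 arrays that stood apart. Without thioacetamide replicate 4, 1 endothelial marker was higher, and without control replicate 1, 1 platelet marker was lower. The defining T cell marker Cd3e and the platelet marker Gp1bb were at or under background on all 8 arrays. Hepatocyte markers, which identify the tissue, averaged 14.75 to 14.96 in thioacetamide livers and 15.01 to 15.14 in control livers, with 1 of 7 lower (Asgr1). The part of any of these cell types in the receptor results was not tested.

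**Figure D5:**
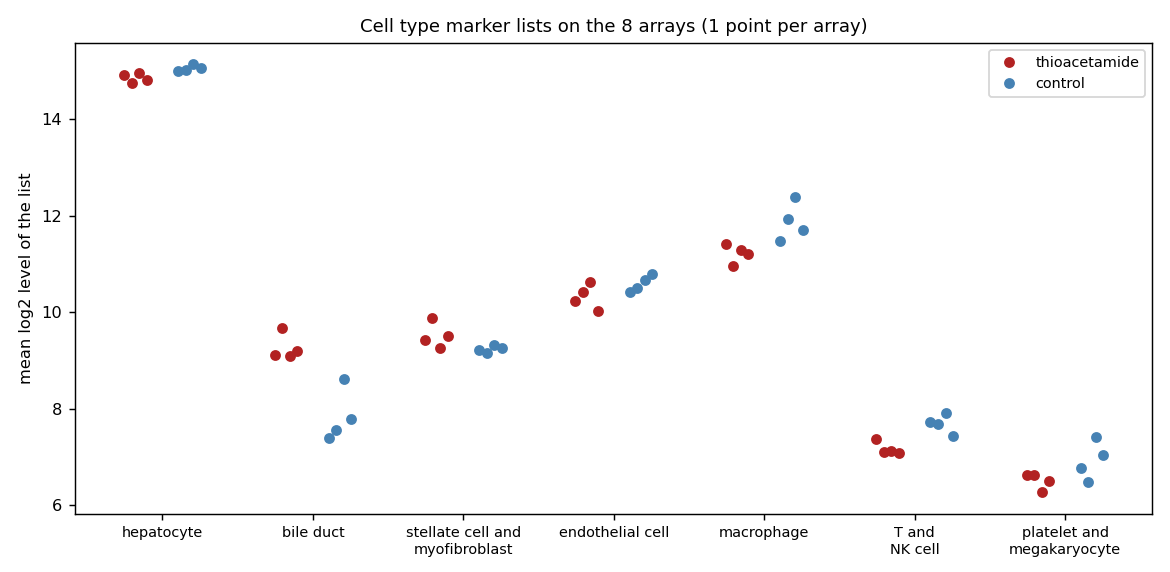
Mean log2 level of 7 marker lists on each array, thioacetamide in red left of control in blue. Levels of different lists are not comparable with each other. Bile duct markers lie at 9.10 to 9.66 on treated arrays and at 7.38 to 8.62 on control arrays, and macrophage markers at 10.96 to 11.41 on treated and 11.47 to 12.39 on control arrays.

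Genes with a profile like that of a member were ranked by the root mean square difference of mean-centred log2 values over the 8 arrays. For Ddr1 these were Cyp2c55 (0.431), Btg3 (0.495), Maff (0.502), Abcc3 (0.504) and Soat1 (0.541). Cyp2c55 averaged 13.44 ± 0.35 in thioacetamide and 8.56 ± 0.78 in control livers (SD, n = 4 each), a difference of 4.88, and Maff, a small Maf transcription factor, averaged 10.28 ± 0.69 in thioacetamide and 5.72 ± 0.30 in control livers, a difference of 4.56. For Ddr2 the genes were Col5a2 (0.159), Tas1r3 (0.192), Or5h24 (0.201), Rbbp5 (0.214) and Plod2 (0.215). Col5a2, a fibrillar collagen chain, averaged 9.58 ± 0.39 in thioacetamide and 8.90 ± 0.47 in control livers, and Plod2, a collagen lysyl hydroxylase, 6.94 ± 0.40 in thioacetamide and 6.22 ± 0.35 in control livers. Tas1r3 is a taste receptor gene and Or5h24 an olfactory receptor gene. Plod2, Tas1r3 and Or5h24 were at or under background on all 4 control arrays, as was Ddr2 itself. For Itga6 they were Ddah1 (0.135), Mybl2 (0.168), Cdr2 (0.212), Cstf3 (0.225) and Wee1 (0.271), whose differences were between 2.54 and 2.74, against 2.60 for Itga6. Btg3, Maff and Soat1, listed for Ddr1, and Mybl2, Cdr2 and Wee1, listed for Itga6, were also at or under background on all 4 control arrays. The size of their differences is therefore limited by background. All of these values share the same 8 arrays and 2 groups, and no test was made of them.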

How the data were processed

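Liver RNA of 4 thioacetamide-treated and 4 untreated rats was measured on 1-colour (Cy3) NimbleGen arrays, 1 array per animal, which makes the spread between animals the error of each test. The authors deposited 1 log2 expression value for each probe set on each array, made with RMA per the submitters' processing notes. RMA corrects background, normalizes between arrays and summarises probes, which can compress folds of dim genes. Neither its version nor the annotation build nor the scanner settings are named in the sources used here. A random control set was left out, and 11 probe sets lacked a value on the array of control replicate 4.

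Probe sets were named with a RefSeq table of the GRCr8 assembly (20543 by gene identifier, 31 by accession, 178 by synonym, 90 by symbol; 5366 kept the file's symbol). Itgb5 was matched by synonym. The member genes, the gene lists and the definition of background were chosen with earlier results of these data known. Groups of genes by role and the motifs were chosen after their values or sequences had been seen.

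Groups were compared with limma 3.58.1 (lmFit and eBayes, two-sided, no covariates) in R 4.3.3, with p-values adjusted by Benjamini-Hochberg over the 26208 probe sets, and 0.05 as threshold. A difference is the thioacetamide mean minus the control mean, with the standard error of the fit. For a gene with several probe sets the one with the highest mean over the 8 arrays was used. Where all control arrays were at or under background, a bound on the fold is given, with each control array entered at its background level where it measured less. The text names all 10 members, for each of 8 context lists the 3 genes past the threshold with the largest difference and the largest of the opposite direction (2 where none passed), and the 5 genes most like Ddr1, Ddr2 and Itga6. Others were named after their values were seen. Of 139 list entries, Tnc, Edil3, Dock1 and Cd98 were not matched, and Nck1 and Nck2 stand in 2 lists.

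In data simulated for this comparison, 17% of 2-fold and 80% of 4-fold changes were recovered among 26197 probe sets, with 4 false of 101 calls. The simulation changed 100 probe sets by each size, whereas 3827 of 26208 passed in the data. Because the Benjamini-Hochberg adjustment depends on the share of changed probe sets, these rates need not hold for the data. The number of arrays limits the precision. Alternatives were cyclic loess, median centring, array weights, trend and robust estimation, removal of dim probe sets (kept if above background on at least 4 arrays), the mean of a gene's probe sets, the replicate number as a block, and leaving out each array. Leaving out control replicates 2 and 3 and thioacetamide replicate 4 together was added after seeing the data.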

Additional observations from a re-analysis of the deposited data

Results flagged for a closer look

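Of 68 groups of 4 arrays examined, 2 held an array far from the others of its group, where chance gives about 5% of groups. On the dimmer probe set of Itga6, thioacetamide replicate 4 was the lowest, at 9.93 against 10.36 to 10.44 on the other treated arrays, and its gap took up 0.833 of the range. For Col5a2, control replicate 3 was the lowest, at 8.21 against 9.05 to 9.21 on the other control arrays, and its gap took up 0.836 of the range. Both arrays were among the 3 that stood apart on the second principal component.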

How the results depend on the processing

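Of the 10 members, Ddr1, Itga6 and Itgav passed the threshold in every alternative run. The number past it was 4 in all, 5 after cyclic loess (with Itga1 at -0.56) and 5 without the 3 arrays that stood apart (with Itga5 at -0.80), and 3 to 4 when 1 array was left out. The sign of Itgb6 turned to -0.0157 without control replicate 2, to -0.308 without thioacetamide replicate 2 and to -0.12 without the 3 arrays, and its difference ran from -0.308 to 0.5767 when 1 array was left out. Over the whole series 3827 probe sets passed (2480 higher, 1347 lower), and 1998 higher and 1736 lower passed after cyclic loess. With 1 array left out the number was 2166 to 3924, lowest without thioacetamide replicate 2 and at 2466 without thioacetamide replicate 1. The 28 calls in the context lists ranged from 15 to 30 when 1 array was left out, and were 42 with array weights. Replicate numbers are shared between the groups, but same-numbered arrays did not deviate together (correlations of deviations 0.246, -0.0983, -0.126 and -0.431), so they were not treated as pairs. With the replicate block, 2163 probe sets, 17 context genes and 3 members passed. Of the member and context genes named as past the threshold, Itgb1 (adjusted p = 0.0711), Cd36, Cd82, Cd151, Crk, Frs2, Git1, Itgb1bp1, Lamb1, Lamb3, Lgals1 and Wwc1 did not pass with the block, at 0.0548 to 0.112, and 0 macrophage markers were lower. The focal adhesion list had 5 higher genes, 2 with the replicate block and 10 with array weights. The cause of these changes was not tested. Itga2, Itgb6 and the control levels of Ddr1 and Ddr2 lay at or near background, which limits what their differences can show.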
